A study of Rattus norvegicus with 8 samples.

Results

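The genes described here are 10 rat genes of the antioxidant defence: Hmox1, Nqo1, Gclc, Gclm, Txnrd1, Srxn1, Sod1, Sod2, Cat and Gpx1. They were taken by gene name with every probe that the array carries for them. This gave 10 of 35499 gene names and 16 of 41012 probes outside the control spots. RNA came from the medial thalamus of urethane-anaesthetised male Sprague-Dawley rats that weighed 277 g, and every animal, controls included, wore an inflatable cuff around the trachea. In the 4 occlusion animals the cuff was inflated so that 2 to 4 breaths were obstructed, followed by at least 15 breaths of recovery, over 10 min, and the brain was taken straight afterwards. In the 4 control animals the cuff stayed deflated, and the brain was taken 70 min after the surgical setup. The time from setup to removal is not given for the occluded animals, so the occlusions and the time under anaesthesia cannot be told apart. Each animal's RNA was labelled with Cy5 and set on one array against a Cy3-labelled pool of all 8 animals, so that each value below is a log2 ratio of the animal over the pool. Both slides held 2 animals of each group.

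NRF2, encoded by Nfe2l2, is a transcription factor that KEAP1 holds at low levels by directing it to degradation. Oxidants and electrophiles modify KEAP1, and NRF2 then pairs with a small MAF protein at antioxidant response elements and raises the transcription of its target genes. The targets measured here are Hmox1, which opens the haem ring, Nqo1, which reduces quinones, the glutathione-synthesis subunits Gclc and Gclm, thioredoxin reductase Txnrd1, and Srxn1, which repairs overoxidised peroxiredoxins. Sod1, Sod2, Cat and Gpx1 are the enzymes that turn superoxide into hydrogen peroxide and hydrogen peroxide into water. The question that the design poses is whether brief repeated airway obstruction changes gene expression in the medial thalamus, a relay region of the brain.

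The core of the antioxidant response element reads TGACNNNGC, where N is any base. It was searched on both strands in RefSeq promoter windows of the GRCr8 assembly, which run from 250 bases before to 50 bases after each annotated gene start. A window was given for 9 of the 10 genes, all but Hmox1, and 3 of the 9 held a match. The same letters stand in 4038 of 33469 windows of all genes, or 12.1%. The 3 matches are shown because they are the stretches of these promoters that carry the core letters. Each is printed along its gene's own strand with 14 bases on either side, and the capitals mark the match, which in each case reads TGACNNNGC on the opposite strand.
Gclm, chr2:213031949-213031985, plus strand, the match beginning at -172 from the gene start: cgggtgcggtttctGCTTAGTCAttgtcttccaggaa
Txnrd1, chr7:22755960-22755996, minus strand, the match beginning at -78: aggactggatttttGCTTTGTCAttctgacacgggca
Sod2, chr1:50050181-50050217, minus strand, the match beginning at -35: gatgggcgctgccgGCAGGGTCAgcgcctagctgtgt
A match is a description of the letters, and the arrays measured transcripts, not binding.

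No probe of the 10 genes passed the test between occluded and control animals. Of the 16 probes, 13 were higher and 3 lower in occluded animals (median log2 difference 0.023), and 0 had an adjusted p under 0.05 in limma. Across the array 0 of 31690 tested probes passed (0%), with 0.977 as the lowest adjusted p of any probe. An unadjusted p under 0.05 was reached by 969 probes of the array (3.06%), and none of the 16 was among them. Taken by the brightest probe of each gene, 9 of the 10 genes lay above the controls and 1 below, and their median difference was 0.082 on the log2 scale. The median over all probes was 0.0019, and the median size regardless of sign was 0.073 over all probes, close to the 0.082 of the 10 genes. That count of 9 fell to 6 of 10 higher, with a median of 0.029, when control 3 was left out. It was 9 of 10 within slide 1 and 4 of 10 within slide 2. The standard errors of the 10 brightest probes lay between 0.066 and 0.17, and their 95% intervals reached from -0.30 at the lowest, for Gpx1, to 0.59 at the highest, for Cat.

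**Figure D1:**
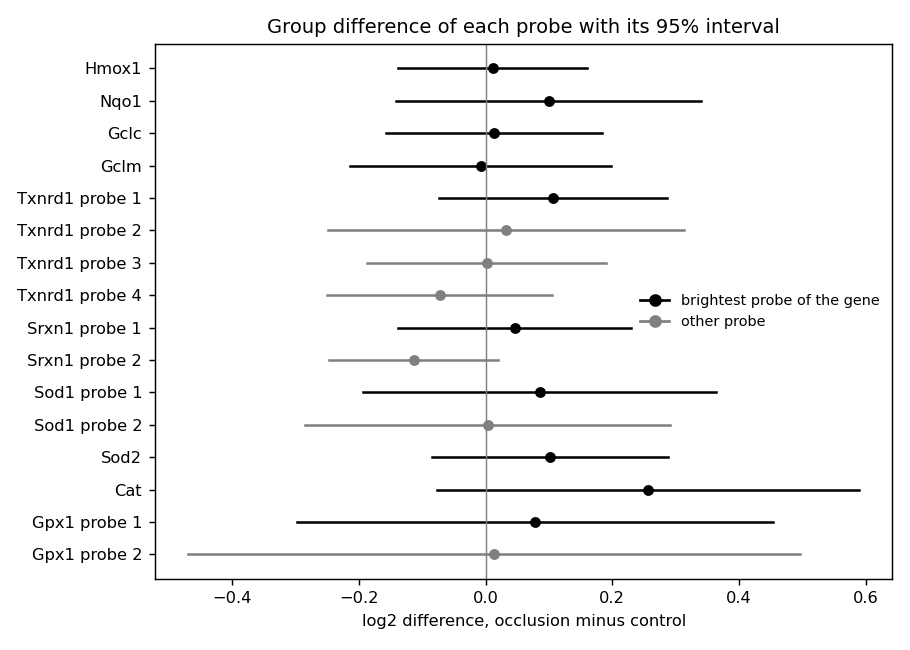
Log2 difference of occlusion minus control (horizontal axis) for each of the 16 probes, with its 95% interval from limma. Black marks the brightest probe of a gene and grey its other probes, numbered from bright to dim. Every interval crosses 0; the point farthest right is Cat at 0.26 and the point farthest left is the dimmer Srxn1 probe at -0.11.

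The animals differed in tissue markers, control 3 the most. Marker values here are means over the genes of a list that were tested and had a value in all 8 animals. The markers of thalamic relay neurons (10 of 12 listed genes) had mean log2 ratios between -0.30 and 0.14 in the occluded animals and between -1.86 and 0.20 in the controls, with -1.86 in control 3. Cortical markers (9 of 12) averaged between -0.56 and -0.26 in the occluded animals and between -0.66 and 1.08 in the controls, and meningeal markers (10 of 11) between -0.54 and 0.13 in the occluded animals and between -0.52 and 1.11 in the controls. Both highest values belong to control 3. Relay markers were thus low and cortical markers high in 1 of the 4 libraries labelled medial thalamus in the control group. Markers of choroid plexus and ependyma (8 of 12) were -0.11, -0.18, 0.62 and -0.56 in occlusion 1 to 4, against -0.43, -0.78, -1.32 and -0.81 in control 1 to 4. Of these markers 8 of 8 were higher in occluded animals, with a median difference of 0.73, and 0 passed the test. Over the array 50.7% of the tested probes were higher. For this list 3 of the 4 controls, and not control 3 alone, lay below every occluded animal. Red cell markers (7 of 10) lay between -0.71 and 0.12 in the occluded animals and between -0.06 and 0.37 in the controls, and the lowest value was that of occlusion 1. In bulk tissue, fewer cells of a type and less RNA per cell cannot be told apart. Among the 10 genes control 3 had the lowest value of all 8 animals for 4: Nqo1, Sod1, Cat and Gpx1. Every tested marker was well above background on at least 4 arrays. The part of these marker differences in the values below was not tested.

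**Figure D2:**
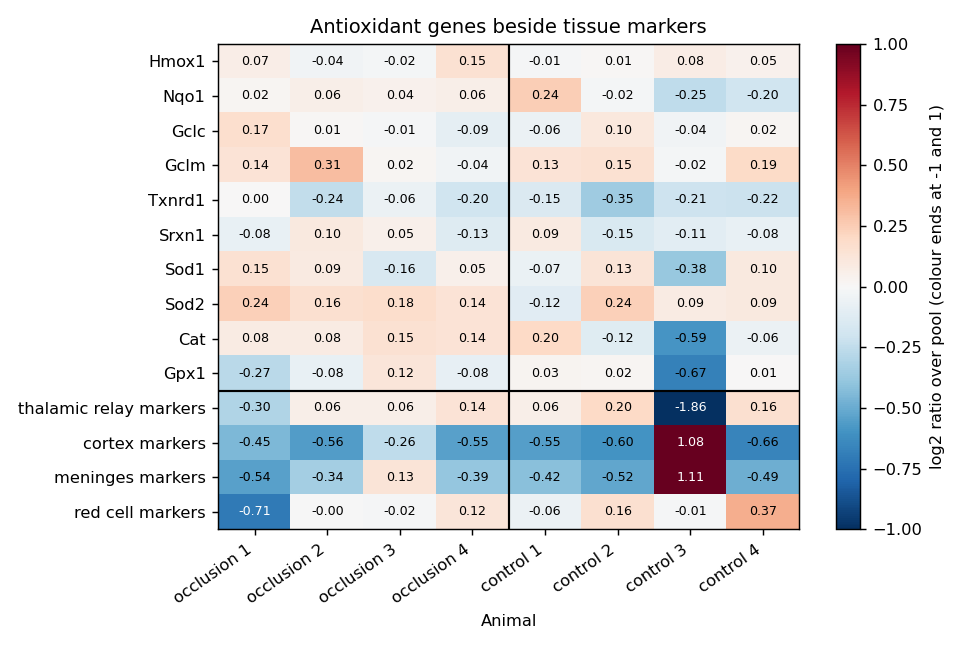
Log2 ratio over the pool in each animal, with occluded animals on the left and controls on the right, for the brightest probe of each gene (upper rows) and for the mean of 4 marker lists (lower rows); colours end at -1 and 1 and the printed numbers are the values. Control 3 is at -0.59 for Cat and -0.67 for Gpx1, in the column where relay markers are at -1.86 and cortex markers at 1.08.

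Hmox1 encodes haem oxygenase 1, which cells switch on strongly in response to haem, hypoxia and oxidants. Its probe was printed 10 times on each array and maps to chr19:13974162-13974221 in the rn3 build of the array design. The Cy5 signal, in scanner units, was 499, 493, 353 and 445 in occlusion 1 to 4, against 439, 468, 520 and 530 in control 1 to 4, with local background near 57. The log2 ratios over the pool were 0.067, -0.037, -0.016 and 0.15 in the occluded animals, against -0.0096, 0.012, 0.077 and 0.046 in the controls. The groups overlapped, and the highest as well as the lowest value belonged to occluded animals. Hmox1 averaged 0.042 ± 0.087 in occluded animals and 0.031 ± 0.038 in controls (SD, n = 4 each). The fold was 1.01 with a 95% interval of 0.908 to 1.12 (limma adjusted p = 0.993). The exact permutation test over all 70 assignments of the animals gave p = 0.914, where the smallest p it can give is 0.029. The spots of Hmox1 on one array differed from each other with an SD between 0.021 and 0.11. The means over the spots had an SD of 0.063 over the 8 animals. The small difference between the groups changed sign under several other treatments of the signal.

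Nqo1 encodes a quinone reductase that is widely used as a readout of NRF2. Its log2 ratios were 0.018, 0.057, 0.043 and 0.056 in the occluded animals, against 0.24, -0.020, -0.25 and -0.20 in the controls. The 4 occluded animals lay close together inside the range of the controls. The means were 0.044 ± 0.018 in occluded animals and -0.056 ± 0.22 in controls (SD, n = 4 each). The log2 difference of 0.10 (SE 0.11) was no larger than its error (limma adjusted p = 0.977, exact permutation p = 0.314). It was 0.26 within slide 1 and -0.062 within slide 2. Leaving out 1 animal gave 0.035 without control 3, 0.053 without control 4 and 0.20 without control 1 (limma unadjusted p = 0.0287, adjusted p = 0.863). Control 1 was the highest animal, and without it 1688 of 31689 probes of the array had an unadjusted p under 0.05.

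Gclc and Gclm encode the catalytic and the modifier subunit of glutamate-cysteine ligase, the enzyme of the rate-limiting step in glutathione synthesis. Gclc had log2 ratios of 0.17, 0.0085, -0.012 and -0.090 in the occluded animals, against -0.060, 0.10, -0.037 and 0.017 in the controls. Its difference of 0.013 (SE 0.075) corresponds to 1.01-fold with a 95% interval of 0.896 to 1.14 (limma adjusted p = 0.993). Gclc gave one of the narrower intervals among the 10 genes, and the animals of both groups were interleaved.

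Gclm was the dimmest of the brightest probes relative to background, with a Cy5 signal of 113 to 134 in occluded animals and 108 to 142 in controls over a local background of 53 to 64. In Cy5 it was well above background in 4 of 4 occluded animals and 3 of 4 controls, whereas the other 15 probes were so on all 8 arrays. In Cy3, the pool's channel, Gclm was not well above background on any array. The log2 ratios were 0.14, 0.31, 0.021 and -0.038 in the occluded animals, against 0.13, 0.15, -0.020 and 0.19 in the controls, and the difference was -0.0080 (SE 0.091, limma adjusted p = 0.996). The size depended on how background was handled. In the log ratios of the scanner software, which add no offset to the signals, Gclm ranged from 0.074 to 1.65 in the occluded animals and from -0.021 to 1.11 in the controls. The difference there was 0.42 (SE 0.39, limma unadjusted p = 0.317), close to the size of its own error. The groups overlapped on both scales. The interval of Gclm on the offset scale, -0.21 to 0.20, thus does not cover the difference on the software's scale.

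**Figure D3:**
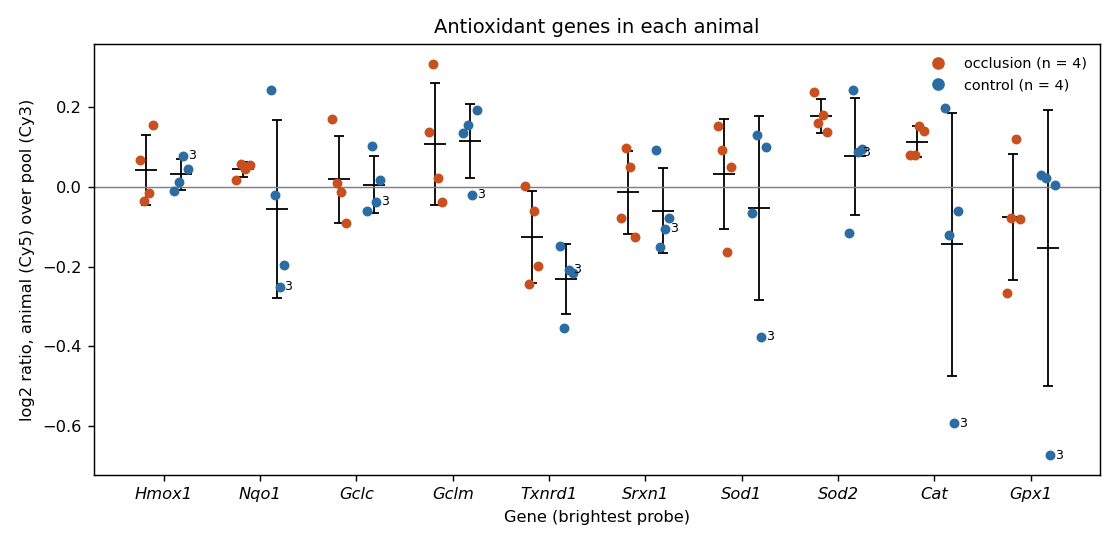
Log2 ratio over the pool (vertical axis) of the brightest probe of each gene in each animal; orange points are the 4 occluded animals and blue points the 4 controls, with the mean and SD as black bars and control 3 marked. The groups overlap for each of the 10 genes, and control 3 lies lowest for Nqo1, Sod1, Cat and Gpx1.

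Txnrd1 encodes the cytosolic thioredoxin reductase, which passes electrons from NADPH to thioredoxin. Its 4 probes did not rank the animals alike. On the brightest, the log2 ratios were 0.0018, -0.24, -0.061 and -0.20 in the occluded animals, against -0.15, -0.35, -0.21 and -0.22 in the controls. Occluded animals were higher on average, but the ranges overlapped. This probe's difference was 0.11 (SE 0.080), or 1.08-fold with a 95% interval of 0.950 to 1.22 (limma adjusted p = 0.977, exact permutation p = 0.229). It was 0.092 within slide 1 and 0.12 within slide 2, but 0.064 without occlusion 1 and 0.066 without control 2. The other 3 probes of Txnrd1 differed by 0.033, 0.0017 and -0.072, in order of falling brightness. On the next brightest, occlusion 1 was highest of all 8 animals at 0.26 and the other occluded animals lay between -0.27 and -0.10, against -0.26 to 0.048 in the controls. The faintest Txnrd1 probe had Cy5 signals of 127 to 168 in occluded animals and 144 to 162 in controls. Its Cy3 signal was well above background only on the arrays of occlusion 4 and control 4. A direction for Txnrd1 therefore depended on which probe was read.

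Srxn1 encodes sulfiredoxin, which returns overoxidised peroxiredoxins to use. Its brighter probe, at chr3:142366129-142366188 in rn3, had log2 ratios of -0.078, 0.097, 0.049 and -0.13 in the occluded animals, against 0.092, -0.15, -0.11 and -0.077 in the controls. The difference was 0.046 (SE 0.081, limma adjusted p = 0.980), with the animals of both groups interleaved, and leaving out 1 animal gave 0.0089 (without occlusion 2) to 0.097 (without control 1). The dimmer Srxn1 probe was the only one of the 16 whose groups did not overlap: 0.036, -0.078, 0.0062 and -0.059 in the occluded animals, against 0.061, 0.066, 0.12 and 0.11 in the controls. The occluded animals were lower, at 0.924-fold with a 95% interval of 0.843 to 1.01 (limma adjusted p = 0.977). The exact permutation p was 0.029, the smallest that the design allows and not adjusted for the 16 probes. Across the array the occluded animals lay wholly below the controls for 1.27% of probes and wholly above them for 1.23%, and the 16 probes held 1 of the lower kind and 0 of the higher. The dimmer Srxn1 probe had Cy5 signals of 110 to 121 in occluded animals and 113 to 136 in controls, over a background of 53 to 62. Its Cy3 signal, that of the pool, was not well above background on any array. The brighter probe of the same gene had the opposite sign.

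Sod1 encodes the cytosolic copper-zinc superoxide dismutase, an abundant enzyme in neurons, and Sod2 the manganese enzyme of the mitochondrial matrix. The brighter Sod1 probe gave Cy5 signals of 62153, 73570, 47881 and 52526 in the occluded animals, against 56718, 61367, 52672 and 72422 in the controls, without saturation on any array. The log2 ratios were 0.15, 0.091, -0.16 and 0.050 in the occluded animals, against -0.065, 0.13, -0.38 and 0.10 in the controls. Occlusion 3 and control 3 were the low animals of their groups on both Sod1 probes. The difference of 0.086 (SE 0.12) gave 1.06-fold with a 95% interval of 0.875 to 1.29 (limma adjusted p = 0.977). It was -0.022 without control 3, and the second Sod1 probe differed by 0.0031. Sod2 had log2 ratios of 0.24, 0.16, 0.18 and 0.14 in the occluded animals, against -0.12, 0.24, 0.086 and 0.094 in the controls. Control 2 was level with the highest occluded animal, and the rest of the controls lay below all 4 occluded animals. Sod2 averaged 0.18 ± 0.043 in occluded animals and 0.076 ± 0.15 in controls (SD, n = 4 each), or 1.07-fold with a 95% interval of 0.943 to 1.22 (limma adjusted p = 0.977, exact permutation p = 0.257). The Sod2 difference was 0.11 within slide 1, 0.096 within slide 2, and 0.10 without control 3, but 0.038 without control 1 and 0.16 without control 2.

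Cat encodes catalase, the peroxisomal enzyme that splits hydrogen peroxide, and had the largest difference among the 16 probes. Its probe maps to chr3:88579491-88581435 in rn3. The Cy5 signals were 1617, 2171, 1498 and 1565 in the occluded animals, against 1673, 1477, 1178 and 1760 in the controls. The log2 ratios were 0.079, 0.079, 0.15 and 0.14 in the occluded animals, against 0.20, -0.12, -0.59 and -0.060 in the controls. Control 1 was the highest animal of all and the other 3 controls lay below every occluded animal. Cat averaged 0.11 ± 0.039 in occluded animals and -0.14 ± 0.33 in controls (SD, n = 4 each). The difference of 0.26 (SE 0.15) gave 1.19-fold, with a 95% interval of the log2 difference of -0.076 to 0.59 (limma unadjusted p = 0.115, adjusted p = 0.977, exact permutation p = 0.143). Without control 3 the difference was 0.11, and without control 1 it was 0.37 (limma unadjusted p = 0.0201, adjusted p = 0.863). With control 1 left out, 1688 of 31689 probes of the array had an unadjusted p under 0.05. The difference was 0.41 within slide 1, which holds control 3, and 0.11 within slide 2. Cat was the only gene of the 10 whose difference kept its sign in each of the 24 other settings that were run. Its smallest adjusted p among them was 0.810. Some settings only changed the filter, took 1 probe a gene, or added a block by slide or replicate number. These left the Cat difference at 0.26 and could not change its sign.

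Gpx1 encodes the cytosolic glutathione peroxidase, which is also abundant in red blood cells. Its probes map to chr16_random:1046407-1046466 (brighter) and chr16_random:1046293-1046352 in rn3. On the brighter probe the log2 ratios were -0.27, -0.077, 0.12 and -0.080 in the occluded animals, against 0.028, 0.023, -0.67 and 0.0051 in the controls. On the dimmer Gpx1 probe they were -0.64, 0.014, 0.054 and 0.080 in the occluded animals, against 0.0032, 0.26, -0.59 and -0.23 in the controls. Occlusion 1 and control 3 were the lowest animals of their groups on both probes. Red cell markers averaged -0.71 in occlusion 1 and -0.01 in control 3, and their part in the Gpx1 values was not tested. The group differences of Gpx1 were 0.078 (SE 0.17) on the brighter probe and 0.014 (SE 0.21) on the dimmer one (limma adjusted p = 0.983 and 0.998). Without control 3 the brighter probe gave -0.094. Gpx1 was therefore the least tightly bounded of the 10 genes, with 95% intervals of 0.814-fold to 1.37-fold and of 0.722-fold to 1.41-fold.

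The Cy3 channel carried the same pool on all 8 arrays and shows how much repeats of one RNA varied between arrays. The SD of the log2 intensity over the arrays was 0.42 in Cy5 and 0.073 in Cy3 for the dimmer Gpx1 probe, a ratio of 5.71. It was 0.29 in Cy5 and 0.088 in Cy3 for Cat (ratio 3.27), and 0.10 in Cy5 and 0.029 in Cy3 for Sod2 (ratio 3.5). For Hmox1 it was 0.081 in Cy5 and 0.051 in Cy3 (ratio 1.59). Over all tested probes the medians were 0.17 in Cy5 and 0.079 in Cy3, a median ratio of 2.01. The Cy5 spread exceeded the Cy3 spread on 15 of the 16 probes, as it did on the median probe of the array. The exception was the faintest Txnrd1 probe at a ratio of 0.929. Each channel was quantile-normalised over the arrays for these values. Animals were always in Cy5 and the pool in Cy3, so differences between animals and between dyes cannot be told apart. By the Cy5 spread alone Gpx1 and Cat lay above the median probe and Hmox1 and Sod2 below it, whereas by the ratio to the pool Sod2 also lay above the median.

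**Figure D4:**
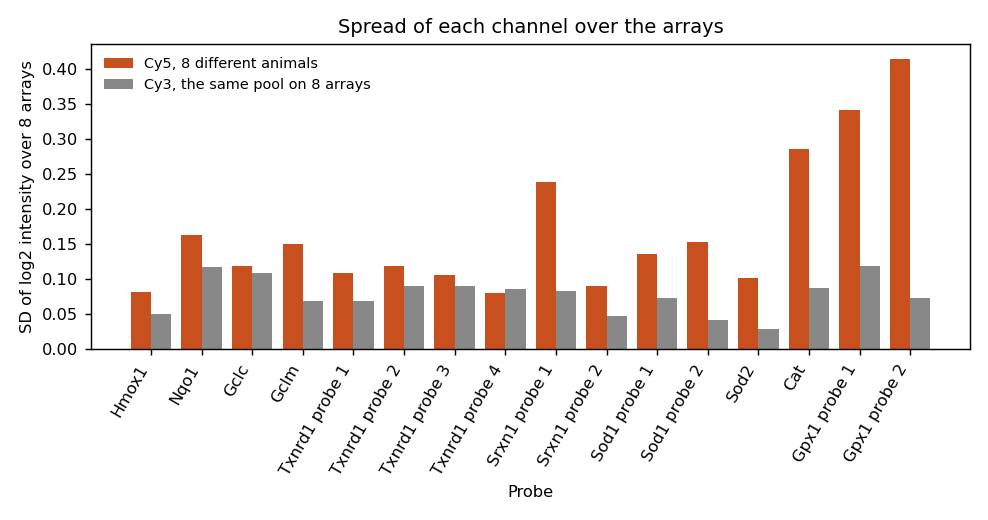
SD of the log2 intensity over the 8 arrays (vertical axis, from 0) for each of the 16 probes, in Cy5, which held a different animal on each array, and in Cy3, which held the same pool. Both Gpx1 probes and Cat have the tallest Cy5 bars, at 0.34, 0.42 and 0.29, while no Cy3 bar reaches above 0.12.

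The genes with the most similar pattern over the 8 animals were sought for the 3 genes that varied most, by the root mean square difference of centred log2 ratios among 17178 candidates. For Cat these were Hexim2 (0.059), Canx (0.066) and Fank1 (0.068). For Gpx1 they were Lrrc61 (0.047), Osbpl5 (0.047) and Rogdi (0.048), and for Sod1 they were Ahcyl1 (0.038), Gli4 (0.043) and Acsl4 (0.049). All 9 had their lowest value in control 3. This follows from the choice of close patterns, since Cat, Gpx1 and Sod1 were lowest there too. In that animal Hexim2 was at -0.54 beside -0.59 for Cat, and Lrrc61 at -0.62 beside -0.67 for Gpx1. The patterns are given as descriptions over 8 animals that share the pool and the slides.

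The wider pathway was read through 7 lists of genes other than the 10, each gene by its brightest tested probe. Of 109 genes tested, 56 were higher and 53 lower in occluded animals (median difference 0.0030 on the log2 scale), and 0 passed the test (0% of the array). The groups did not overlap for 2 genes that were higher and 3 that were lower, where the array had 1.23% and 1.27%. All the genes named next had an adjusted p of 0.977 in limma.

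Among the regulators of NRF2, 6 of 11 genes were higher and 5 lower (median 0.020). Nfe2l2 itself had log2 ratios of 0.45, 0.11, 0.090 and -0.069 in the occluded animals, against -0.057, -0.15, 0.086 and 0.016 in the controls. Occlusion 1 was the high animal and the rest overlapped, for a difference of 0.17 (SE 0.11). Mafk, a small MAF partner of NRF2, differed by -0.11 (SE 0.084). Among the other superoxide dismutase and glutathione peroxidase genes, 4 of 8 were higher and 4 lower. Ccs, the chaperone that loads copper into Sod1, differed by -0.12 (SE 0.067), and Gpx6 by -0.11 (SE 0.091).

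Thioredoxin and peroxiredoxin genes were split, with 10 of 21 higher and 11 lower and a median of -0.0048. The sestrins Sesn2 and Sesn3, stress-response proteins linked to peroxiredoxin repair and to growth control, lay on opposite sides. Sesn3 had log2 ratios of 0.10, -0.026, -0.028 and 0.070 in the occluded animals, against -0.066, -0.30, -0.27 and -0.065 in the controls, so that the groups did not overlap (difference 0.21, SE 0.080). Sesn2 differed by -0.13 (SE 0.075), with the 4 occluded animals below the 3 controls that had a value. In glutathione synthesis, recycling and transfer 14 of 24 genes were higher and 10 lower, with a median of 0.024. Here Gstt2 differed by 0.23 (SE 0.14), and a glutathione transferase probe that the array names Gstm3 and the RefSeq table Gstm7 by -0.17 (SE 0.078).

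Genes of haem, iron and metal handling were also split, with 6 of 11 higher and 5 lower. Blvrb, a biliverdin reductase that acts downstream of haem oxygenase, had log2 ratios of -0.24, -0.32, -0.27 and -0.20 in the occluded animals, against -0.097, -0.079, -0.10 and -0.078 in the controls. Each occluded animal lay below each control, for a difference of -0.17 (SE 0.057, limma unadjusted p = 0.0162, adjusted p = 0.977). Blvrb was thus separated between the groups while Hmox1, which acts before it in haem breakdown, was not. Hpx, the haem-binding plasma protein hemopexin, differed by -0.15 (SE 0.082). Of the genes of NADPH supply and NRF2-linked detoxification, 13 of 23 were higher and 10 lower. Abcc1, an exporter of glutathione conjugates, differed by -0.19 (SE 0.10).

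Of the superoxide-producing oxidase genes, 3 of 11 were higher and 8 lower, with a median of -0.094. Cybb, the catalytic subunit of the phagocyte NADPH oxidase, had log2 ratios of 0.034, -0.0015, 0.0032 and -0.030 in the occluded animals, against 0.31, 0.090, 0.082 and 0.089 in the controls. The occluded animals lay below all controls, control 1 was far above the rest, and the difference was -0.14 (SE 0.071). Noxo1, an organiser subunit of another NADPH oxidase, differed by -0.11 (SE 0.067). Markers of microglia and macrophages, the cells in which Cybb is mainly expressed, were higher in 7 and lower in 4 of 11 genes. Their median was 0.051, where the median size regardless of sign was 0.073 over all probes. Their part in the Cybb values was not tested.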

How the data were processed

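Per the file headers, the authors used Agilent's Feature Extraction software, version 9.5.1.1, on the 2-colour arrays. Deposited files give spot intensity in each channel and a log10 ratio of Cy5 over Cy3. The authors' deposited value table holds the same log10 ratio: all 45018 spots of each array matched within 1%, its column medians are 0, and its centring stays unknown. Arrays had 68.3% (control 1) to 80.2% (control 3) of spots well above background in Cy5. The median signal was 3.65 to 4.67 times background. The number of arrays limits the precision.

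Intensities were corrected by normexp (offset 50) and normalised by loess within arrays, with control and outlier spots at weight 0. Such an offset shrinks the ratios of dim probes. Spots of a probe were averaged, and a probe was tested if 4 or more of the 8 arrays had it well above the Cy5 background, with 2 or more values a group. Tests were run in limma 3.58.1 (R 4.3.3, lmFit and eBayes, two-sided), each probe on its own, with Benjamini-Hochberg adjustment over 31690 probes and a threshold of 0.05. All 16 probes of the 10 genes were tested and none was saturated. Exact permutation tests were two-sided. The pipeline was tested on simulated data. Animals are the replicates, per the labels. Of all probes, 10735 were named by accession, 1222 by gene ID, 5501 by symbol and 3747 by synonym in a RefSeq table of GRCr8, and 19807 kept the array's name. The lowest correlation between arrays was -0.18, and the direction of the ratios is that of the dyes in the labels.

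The 10 genes, the pathway and marker lists and the tests were chosen with earlier results of these data known. All 10 genes are named. Of each pathway list the 2 genes with the smallest unadjusted p are named, except 1 gene that is not reported here, and the 3 nearest patterns are given for the 3 genes of largest SD. Alternatives covered the background correction, the normalisation, the deposited ratios, Cy5 alone, the filter, 1 probe a gene, array weights, slide, replicate number and each animal left out. No annotation of rn3 was used here.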

Additional observations from a re-analysis of the deposited data

Results flagged for a closer look

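For each of the 16 probes and each group of 4 animals, the lowest or highest animal was compared with the range of its group, and 2 of 32 such checks stood out; chance gives about 1 in 20. On the brighter Gpx1 probe, control 3 had a log2 ratio of -0.67, against 0.0051 to 0.028 in the other controls, so that its gap was 0.967 of the range of the group. On the dimmer Gpx1 probe, occlusion 1 had a log2 ratio of -0.64, against 0.014 to 0.080 in the other occluded animals, a gap of 0.909 of the range. Both animals were also the lowest of their group on the other Gpx1 probe, at -0.27 for occlusion 1 on the brighter and -0.59 for control 3 on the dimmer.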

How the results depend on the processing

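Under 24 other settings, 0 probes of the 10 genes passed the threshold. Of all probes 0 passed, except that leaving out 1 animal gave 0 to 1, with the 1 probe found without control 3. Of 239 differences recomputed, 44 changed sign, none with an adjusted p under 0.810, and the cause was not tested. The filters, 1 probe a gene and the blocks by slide or replicate number left unchanged each difference they gave. Those settings could therefore change no sign. Without normalisation the median of all probes shifted by -0.18, and 1 gene was higher and 9 lower: Hmox1 -0.16, Nqo1 -0.071, Gclc -0.17, Txnrd1 -0.014, Srxn1 -0.18, Sod1 -0.051, Sod2 -0.033 and Gpx1 -0.046 changed sign. The scanner software's log ratio and the deposited value table, with values alike in both, turned Hmox1 to -0.039, Gclc to -0.012 and Gclm to 0.42. Plain subtraction of background gave -0.0019 for Hmox1 and 0.12 for Gclm, and no correction gave -0.0011 for Hmox1 and 0.082 for Gclm. Cy5 alone gave -0.032 for Hmox1, -0.097 for Gclc, 0.071 for Gclm and -0.035 for Gpx1. Median centring gave -0.0037 for Srxn1. Array weights gave -0.018 for Gclc, -0.035 for Sod1 and -0.028 for Gpx1. Within slide 1, Hmox1 was -0.046 and Gclm 0.14. Within slide 2, Nqo1 was -0.062, Gclc -0.072, Srxn1 -0.0086, Sod1 -0.089 and Gpx1 -0.0051. Leaving out 1 animal gave -0.026 to 0.037 for Hmox1, -0.037 to 0.049 for Gclc, -0.075 to 0.041 for Gclm, -0.022 to 0.15 for Sod1 and -0.094 to 0.14 for Gpx1. With the filter on all 8 arrays Gclm had no value. Deviations from the group means correlated at -0.13, 0.13, 0.019 and 0.076 between animals of the same number. Those animals lay on different slides and slide was not removed, so the correlations cannot show whether animals were paired. With the replicate number as a block 0 probes passed. The 9 of the 10 genes stayed higher because the block left the differences unchanged. Dim signals over background limit Gclm and the dimmer Srxn1 probe most.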
